A study of Mus musculus with 2 samples.

Results

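The genes described here encode the machinery of oxidative phosphorylation in epithelial cells of the embryonic mouse lung. They are 104 genes of the 31053 listed in the control library, and 11810 listed genes reached the same minimum of 50 unique molecular identifiers (UMIs, tags that mark single captured RNA molecules). Members were chosen by symbol and by that minimum, summed over cells with at least 1000 detected genes and at most 10% of UMIs from mitochondrially encoded genes. Of 97 nuclear genes with a matching symbol, 91 reached it, 77 of them subunits of the complexes and 14 assembly or related factors, and so did 13 of 13 mitochondrially encoded protein genes. Just outside the limit were Ndufa4l2 with 16 UMIs and Cox6a2 and Cox7b2 with 3 each, and Cox8b, Cox8c and a second Atp5o identifier were at 0. Just inside it were mt-Nd6 with 221, Cox7a1 with 249 and mt-Atp8 with 464 UMIs.

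The study took sorted lung epithelial cells at embryonic day 15 from a control genotype and from embryos with knockouts of the LEF/TCF transcription factors (titled QKO), the nuclear effectors of Wnt signalling, and profiled 1 library of each by droplet single-cell RNA sequencing of 3′ ends. The labels give no strain, no driver of the knockout and no number of embryos. Only the control library was measured here, and expression in the knockout library was not analysed here, so every comparison is between cell classes inside 1 library. There is no replicate, no test was made, and each interval is a 95% interval that covers counting error only.

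Oxidative phosphorylation passes electrons from complex I (NADH dehydrogenase) or complex II (succinate dehydrogenase, also an enzyme of the citric acid cycle) through complex III to complex IV (cytochrome c oxidase), and complex V (ATP synthase) uses the resulting proton gradient to make ATP. Complexes I, III, IV and V combine subunits encoded in the nucleus with subunits encoded in mitochondrial DNA, while complex II is entirely nuclear. Several subunits have tissue isoforms, among them Cox4i2, a form of subunit 4 of complex IV known from lung and from its response to low oxygen.

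Of 3568 barcodes, 3457 cells were kept, with a median of 12826 UMIs per cell (range 2013 to 112424), and 29 of them carry a barcode that also occurs among the 5342 of the knockout library. Cells were clustered with the members and cell-cycle genes left out of the variable genes, and clusters were named from marker genes. Markers at 2 times the level of other cells named the airway and alveolar type 2 classes. None of the 3 distal clusters had a distal marker at that level. They were named from distal markers at 1.5 times the airway-like level, by a rule set after clusters had been seen. Distal progenitor-like cells (3 clusters, 1231 cells, median 10731 UMIs) carried Sox9, Id2, Etv5 and Sftpc, airway-like cells (1 cluster, 739 cells, 9289 UMIs) carried Sox2 and Scgb3a2, and alveolar type 2-like cells (1 cluster, 652 cells, 15989.5 UMIs) carried Sftpb, Sftpa1 and Lamp3 on top of distal markers. Summed over 8 distal markers, the alveolar type 2-like cluster stood above the distal progenitor-like class (4051 against 3269 CPM), with airway-like cells at 567 CPM. Etv5 (255 against 269 CPM) and Lin28b (0.253 against 0.681 CPM) went the other way. These markers thus set distal progenitor-like cells apart from airway-like cells and not from the alveolar type 2-like cluster. Of the alveolar type 2 markers, Sftpb, Sftpa1, Lamp3 (6.92 against 5.17 CPM), Napsa and Cxcl15 were higher in that cluster than in distal progenitor-like cells. Abca3 was lower (7.68 against 9.87 CPM), Lyz2 had 0 against 8 UMIs and Slc34a2 had 2 against 3. A further cluster of 792 cells (19222.5 UMIs) was led by Cym, Smoc2 and Ager. It carried distal markers above the airway-like level (Sox9 at 125 against 38.8 CPM), but the alveolar type 1 marker Ager was among its leading genes and only 2 markers of that type (Ager and Clic5) reached the naming level. It therefore has no cell type name and is called the Smoc2/Ager-led cluster. It held the most cells with both Xist and Y-linked UMIs, 19.3% against 2.61% to 5.95% in the other 3 epithelial classes, a mark of droplets that may hold cells of both sexes. All 4 classes reached the pan-epithelial level for 5 of 5 markers. Mesenchymal-like cells numbered 43, with 0 of 5. Blood markers summed to 70.5 CPM in distal progenitor-like cells and 0.835 to 1.14 CPM in the other epithelial classes, and 867 of the 885 distal Pf4 UMIs lay in 1 cell. Without the cells that held a blood marker UMI, the mitochondrial distal over airway ratio described below was 0.922 in place of 0.920 and the nuclear one 1.036 in place of 1.037.

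Levels are given as CPM, the UMIs of a gene or group per 1000000 UMIs of the class. The 3′ kit counts an RNA molecule once whatever its length. A gene is said to be lower at a CPM ratio of at most 0.8, and higher where the inverse of the ratio is at most 0.8. The share of all 11810 genes past the same limit is given for each comparison, and counts of members and of other gene lists are to be read against it.

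Promoters of 4 members are shown first because these genes stand at the ends of the pattern described below. Uqcrc1 and Sdha have long coding sequences and were low in distal progenitor-like cells, and Atp5k and Atp5e have short ones and were high there. Each window is 300 bases of mouse build GRCm38.p6 from RefSeq, from 250 before to 50 after the gene's start, read 5′ to 3′ on the gene's strand. The windows are chr9:108936398-108936697 (plus strand) for Uqcrc1, chr13:74350191-74350490 (minus) for Sdha, chr5:108434350-108434649 (minus) for Atp5k and chr2:174464052-174464351 (minus) for Atp5e. Capitals mark matches, on either strand, to 4 motifs: the core of the NRF1 site CGCNTGCG, the ETS site CCGGAAG, the YY1 site AAGATGGCG and the hypoxia response core ACGTG or GCGTG, and matches of different motifs may overlap.
Uqcrc1: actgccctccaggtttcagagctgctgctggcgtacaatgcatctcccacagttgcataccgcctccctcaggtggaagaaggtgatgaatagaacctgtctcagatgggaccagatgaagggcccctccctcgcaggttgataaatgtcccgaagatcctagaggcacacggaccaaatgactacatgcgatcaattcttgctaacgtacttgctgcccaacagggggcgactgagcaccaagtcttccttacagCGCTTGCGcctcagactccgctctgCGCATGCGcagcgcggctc
Sdha: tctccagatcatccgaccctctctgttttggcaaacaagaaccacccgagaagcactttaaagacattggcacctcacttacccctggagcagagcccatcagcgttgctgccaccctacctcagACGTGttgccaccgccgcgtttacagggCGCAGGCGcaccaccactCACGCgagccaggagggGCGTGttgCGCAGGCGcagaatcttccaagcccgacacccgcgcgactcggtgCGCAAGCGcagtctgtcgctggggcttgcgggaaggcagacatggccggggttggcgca
Atp5k: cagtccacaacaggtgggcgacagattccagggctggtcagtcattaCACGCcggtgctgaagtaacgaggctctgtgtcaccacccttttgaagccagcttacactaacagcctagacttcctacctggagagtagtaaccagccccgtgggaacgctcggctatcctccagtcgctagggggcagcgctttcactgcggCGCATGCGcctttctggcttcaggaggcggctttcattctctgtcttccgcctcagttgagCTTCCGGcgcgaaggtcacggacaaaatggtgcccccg
Atp5e: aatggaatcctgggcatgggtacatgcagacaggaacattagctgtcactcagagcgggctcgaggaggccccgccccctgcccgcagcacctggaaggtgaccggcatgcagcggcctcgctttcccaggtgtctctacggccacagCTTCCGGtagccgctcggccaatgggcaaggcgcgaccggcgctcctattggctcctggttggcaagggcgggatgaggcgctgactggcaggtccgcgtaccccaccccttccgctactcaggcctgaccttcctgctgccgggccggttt

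The NRF1 motif, the site of a factor known to drive many respiratory chain genes, occurred 2 times in the Uqcrc1 window, 3 times in that of Sdha and 1 time in that of Atp5k. Sdha also held 3 hypoxia cores, Atp5k 1 hypoxia core and 1 ETS motif, and Atp5e 1 ETS motif, the site of factors such as GABPA. Among the genes shown, the long members and the short member Atp5k thus held NRF1 motifs, and the short member Atp5e held 0. Of the other long members with a window, Atp5b, Ndufa9, Ndufa10, Ndufv1, Ndufv3 and Ndufaf7 held 0 and Ndufaf5 held 1. The genes shown therefore do not stand for long members in general, and motif shares by coding length were not taken. RefSeq windows were matched for 78 of the 91 nuclear members, giving 83 promoters. The NRF1 motif was present in 39.8% of them, in 17.4% of the 12131 promoters of genes with at least 50 UMIs and in 8.21% of all 32851. The corresponding shares were 25.3%, 17.9% and 8.86% for the ETS motif, 9.64%, 3.11% and 1.40% for the YY1 motif and 66.3%, 62.9% and 43.8% for the hypoxia cores. A match describes the letters and not a bound site.

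The nuclear members as a sum were nearly level across the epithelium, and the mitochondrially encoded members were not. The 91 nuclear genes gave 33531 CPM in airway-like, 34764 in distal progenitor-like, 36092 in alveolar type 2-like and 34927 in Smoc2/Ager-led cells. The 13 mitochondrial genes gave 33223, 30568, 21590 and 24771 CPM in the same order. Nuclear levels thus lay within 1.08-fold of each other, while mitochondrial levels were highest in airway-like cells, somewhat lower in distal progenitor-like cells and lowest in alveolar type 2-like cells. Mitochondrial UMIs per nuclear member UMI were 0.991 in airway-like, 0.879 in distal progenitor-like, 0.709 in Smoc2/Ager-led and 0.598 in alveolar type 2-like cells.

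The same order held per cell. The median share of a cell's UMIs from mitochondrial members was 3.26% in airway-like cells (5th to 95th percentile 2.13% to 6.08%), 3.06% in distal progenitor-like (1.97% to 5.0%), 2.43% in Smoc2/Ager-led (1.75% to 3.72%) and 2.13% in alveolar type 2-like cells (1.56% to 2.92%). The nuclear members' medians were 3.37%, 3.50%, 3.51% and 3.62%. Cells of a class differed more in the mitochondrial than in the nuclear share, with coefficients of variation of 23.2% to 36.6% against 7.34% to 12.3%. Within classes the 2 shares had Spearman correlations of -0.34 to -0.06 over 652 to 1231 cells, and both are parts of the same total. The limit of 10% on mitochondrial UMIs bounds these values from above.

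**Figure D1:**
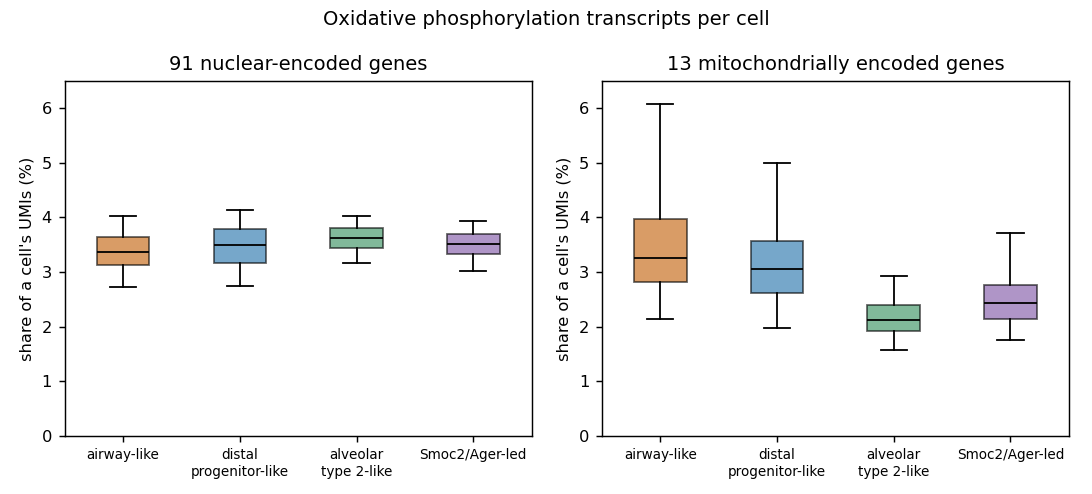
Share of each cell's UMIs from the 91 nuclear (left) and 13 mitochondrially encoded (right) oxidative phosphorylation genes, in percent, by cell class. Boxes span the quartiles with the median as a line, and whiskers run from the 5th to the 95th percentile of cells. Nuclear medians lie between 3.37% and 3.62%, and mitochondrial medians fall between 3.26% in airway-like and 2.13% in alveolar type 2-like cells.

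Depth differed between the classes, so the shares were also taken within depth bins. In cells of 10000 to 14000 UMIs, mitochondrial members made up 3.29% of the UMIs of 120 airway-like cells, 2.94% of 449 distal progenitor-like cells, 2.39% of 185 Smoc2/Ager-led cells and 2.25% of 156 alveolar type 2-like cells. From 7000 UMIs upward the alveolar type 2-like share was below both the distal progenitor-like and the airway-like share in each bin of at least 20 cells. Under 7000 UMIs the mitochondrial share was 4.36% to 4.65% in the 3 classes with at least 20 cells, without that order. The nuclear share lay between 3.20% and 3.68% in all these bins.

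**Figure D2:**
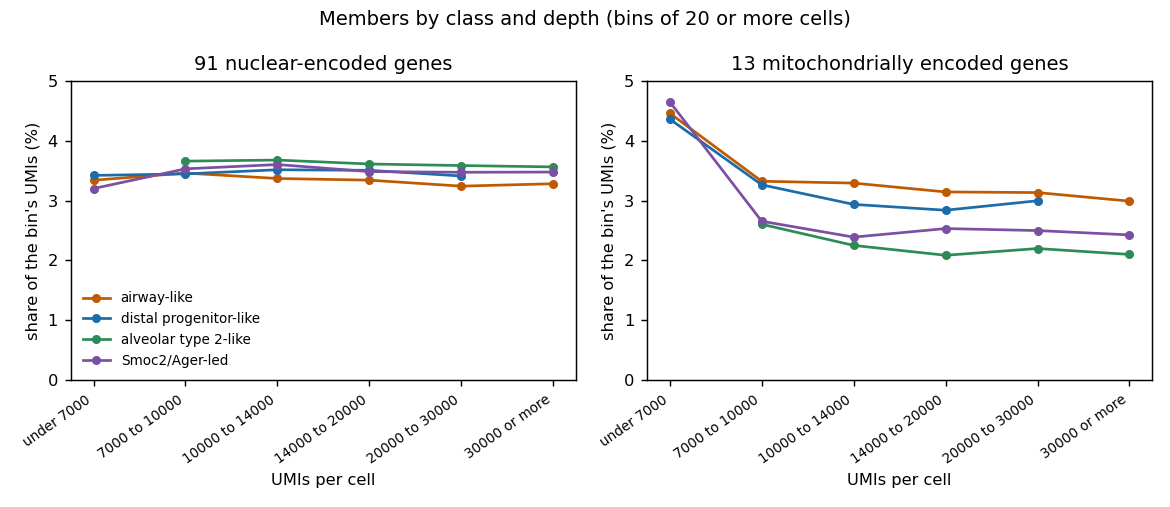
Share of UMIs (percent) from the nuclear (left) and mitochondrially encoded (right) members against UMIs per cell, in bins of at least 20 cells, 1 line per class. Nuclear shares stay between 3.20% and 3.68%, and in bins from 7000 UMIs upward the alveolar type 2-like line is the lowest of the mitochondrial shares.

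Among the mitochondrially encoded genes, complex I, III, IV and V transcripts did not all show one ratio between distal progenitor-like and airway-like cells. The sum was 0.920 of the airway-like level (interval 0.916 to 0.924), with 0 of 13 genes higher and 1 lower, where 14.9% of all genes were higher and 41.2% lower. The lower gene was mt-Co1, the catalytic subunit of complex IV, at 4296 CPM in airway-like and 3201 CPM in distal progenitor-like cells (ratio 0.745, 0.735 to 0.755). The cytochrome b gene mt-Cytb followed at 0.829 (0.817 to 0.841). By contrast mt-Nd1, a core membrane subunit of complex I, was at 4240 and 4987 CPM (ratio 1.18, 1.16 to 1.19), and mt-Nd4l and mt-Nd3 had ratios of 1.16 and 1.07. The other 8 genes lay between 0.850 and 0.990, with 0.934 for mt-Atp6 (8295 and 7751 CPM), a subunit of the proton channel of complex V.

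Against distal progenitor-like cells, the mitochondrial genes of alveolar type 2-like cells were lower together. Their sum was 0.706 of the distal level (0.703 to 0.710), and 12 of 13 genes were at or below 0.8, where 27.2% of all genes were higher and 22.9% lower. The exception was mt-Atp8, at 0.868 (0.662 to 1.14) from few UMIs. The ratios of the 12 ran from 0.543 for mt-Nd6 to 0.760 for mt-Co1, and by complex the sums were 0.698 (I), 0.691 (III), 0.714 (IV) and 0.709 (V). In Smoc2/Ager-led cells the sum was 0.810 of the distal level (0.807 to 0.814) and 7 of 13 genes were lower, with mt-Nd1 at 0.742 and mt-Co1 at 0.972, where 31.1% of all genes were higher and 8.99% lower. The pairs mt-Atp8 and mt-Atp6, mt-Nd4l and mt-Nd4, and mt-Nd6 and mt-Nd5 overlap in the annotation (the last on opposite strands), so the split of UMIs within a pair is uncertain.

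**Figure D3:**
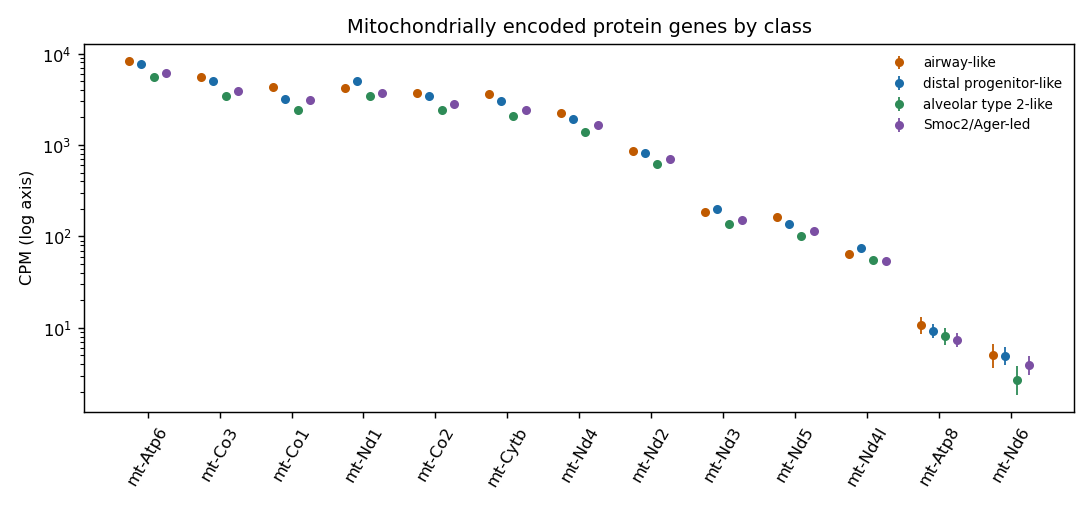
CPM (log axis) of the 13 mitochondrially encoded protein genes, with 1 point per class and exact 95% Poisson intervals, ordered by the airway-like level. Alveolar type 2-like cells are lowest for 11 of the 13 genes, and mt-Nd1, mt-Nd3 and mt-Nd4l are the genes at which distal progenitor-like cells lie above airway-like cells.

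Nuclear members differed gene by gene in opposite directions, which the sum hides. Between distal progenitor-like and airway-like cells the summed ratio was 1.037 (1.032 to 1.042) and the median member ratio 1.0, with 11 of 91 members higher and 18 lower, where 14.9% of all genes were higher and 41.2% lower, and with a median of 0.867 over all genes. With a limit of 1.5-fold in either direction, 1 member was higher (Cox4i2) and 12 were lower, where 32.5% of all genes passed in either direction. Summed by complex, the ratio was 1.038 for complex I, 0.865 for complex II, 1.0 for complex III, 1.085 for complex IV and 1.024 for complex V. The members' share was below that over all genes in both directions. It was also below that of 694 genes with 7673 to 27728 UMIs, the quartiles of the nuclear members' own counts (members among them). Of these, 17.6% were higher and 24.1% lower. The 29 members past the limit became 14 with finer clusters (resolution 0.8), 12 with marker gates and 7 in cells of at least 2000 genes. The share of all genes was not taken under those settings.

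Relative to airway-like cells, the members lower in distal progenitor-like cells included Atp5b, Atp5a1, Uqcrc1, Uqcrc2, Sdha, Ndufv1 and Ndufs1, which are catalytic or core subunits, and also accessory subunits, isoforms and assembly factors such as Ndufa9, Ndufa10, Cox6b2 and Ndufaf7. Atp5b, the catalytic beta subunit of ATP synthase (chromosome 10, 128083273 to 128090391), was at 677 CPM in airway-like, 360 in distal progenitor-like, 1073 in alveolar type 2-like and 867 in Smoc2/Ager-led cells (distal over airway 0.531, 0.512 to 0.551). Uqcrc1 and Uqcrc2, the core proteins of complex III, were at 166, 80.0, 233 and 185 CPM and at 151, 81.9, 194 and 189 CPM in the same order. The distal progenitor-like level was thus the lowest of the 4 for each of these genes and the alveolar type 2-like level the highest.

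In complex I the same order was found for Ndufa9, an accessory subunit, at 79.4, 40.2, 121 and 96.9 CPM in airway-like, distal progenitor-like, alveolar type 2-like and Smoc2/Ager-led cells. Ndufv1, which carries the NADH-binding site, was at 54.6, 32.5, 87.5 and 67.5 CPM, and Ndufs1, the largest core subunit, at 30.1, 14.3, 30.8 and 28.9 CPM. In complex II, Sdha, the subunit that oxidises succinate, was at 73.4, 38.5, 89.0 and 77.7 CPM, while its membrane anchor Sdhc was at 84.2, 77.1, 88.7 and 88.5 CPM. Subunits of one complex thus differed in how far the classes lay apart. Assembly factors of complex I showed it as well, with distal over airway ratios of 0.413 for Ndufaf7 and 0.452 for Ndufaf1, but 1.27 for Ndufaf4.

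The members that were higher in distal progenitor-like than in airway-like cells were mostly small subunits, with Cox4i2, described further on. Atp5k, the e subunit of ATP synthase, was at 301 CPM in airway-like, 433 in distal progenitor-like, 375 in alveolar type 2-like and 325 in Smoc2/Ager-led cells (distal over airway 1.44, 1.38 to 1.51). Atp5e, the epsilon subunit, was at 966, 1273, 987 and 950 CPM. Ndufb7 had a ratio of 1.40 (1.34 to 1.46), Atp5g1, a gene for the membrane ring of ATP synthase, 1.36, Uqcrq 1.34 and Ndufs6 1.34. The other 4 were Ndufa5, Ndufa2, Ndufaf4 and Cox7a2, with ratios of 1.26 to 1.30.

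The alveolar type 2-like cluster showed the reverse of that split. Of 91 nuclear members, 26 were higher than in distal progenitor-like cells and 5 lower, where 27.2% of all genes were higher and 22.9% lower, and the summed ratio was 1.038 (1.034 to 1.042). The highest ratios were those of Ndufa9 at 3.01 (2.74 to 3.32), Atp5b at 2.98 (2.89 to 3.08), Uqcrc1 at 2.91 (2.72 to 3.12), Ndufv1 at 2.69 and Uqcrc2 at 2.37. The share of higher members was close to that over all genes and that of lower members below it. Among the 694 genes of like UMI counts, 39.5% were higher and 4.03% lower. Against these, fewer members were higher and the share of lower members was similar. The lower members were Cox6b2, Cox7a2l, Cox7a1, Sdhaf1 and Atp5e, between 0.639 and 0.776. Complex II stood highest as a sum at 1.51 (1.46 to 1.57), and complex IV was at 0.936 (0.929 to 0.944) with 0 of its 14 members higher. In Smoc2/Ager-led cells 24 members were higher than in distal progenitor-like cells and 7 lower, where 31.1% of all genes were higher and 8.99% lower, again led by Atp5b and Ndufa9 at 2.41 each, with a summed ratio of 1.005 (1.001 to 1.008). Of the 694 genes of like UMI counts, 34.6% were higher and 3.75% lower there. These comparisons share the distal progenitor-like cells with the one above, so their opposite signs are not independent. Directly against airway-like cells, alveolar type 2-like cells had 19 nuclear members higher and 5 lower, where 20.3% of all genes were higher and 38.1% lower. Among the 694 genes of like UMI counts, 38.3% were higher and 7.78% lower. Fewer members were thus lower than among all genes, and fewer were higher than among genes of like UMI counts.

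Member ratios followed the length of the coding sequence. Coding length is the longest coding sequence of the gene in GENCODE M21, and over the 91 members its Spearman correlation with the ratio was -0.67 for distal progenitor-like over airway-like cells, 0.82 for alveolar type 2-like over distal progenitor-like and 0.79 for Smoc2/Ager-led over distal progenitor-like cells. Over 4703 other genes with at least 1000 UMIs the values were -0.18, 0.03 and 0.18. These are descriptions across genes of the same cells, and genes are not independent replicates. The 13 members of 1000 nt or more, from Ndufaf5 (1029 nt) to Ndufs1 (2181 nt), summed to 2220 CPM in airway-like, 1344 in distal progenitor-like, 2966 in alveolar type 2-like and 2555 in Smoc2/Ager-led cells. Of these 13, 11 were lower in distal progenitor-like than in airway-like cells and 12 were higher in alveolar type 2-like than in distal progenitor-like cells, Ndufv3 being the exception there at 1.01. Of 2483 other genes of that length with at least 1000 UMIs, 40.2% were lower in the first comparison and 41.4% higher in the second.

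By length class the distal over airway ratio of the summed members was 1.15 under 300 nt (19 members), 1.06 from 300 to 500 nt (34), 0.927 from 500 to 1000 nt (25) and 0.606 (0.594 to 0.618) from 1000 nt (13). The alveolar type 2-like over distal ratio was 0.871, 1.01, 1.21 and 2.21 (2.17 to 2.24) in the same classes. These are ratios of sums, and the median over members of the latter ratio was 0.857, 1.01, 1.22 and 2.15. For other genes with at least 1000 UMIs the median of that ratio was 0.859, 0.945, 1.19 and 1.14. The shorter classes thus lay near the other genes of like length, and the class of 1000 nt or more lay above them, a difference that was not tested.

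**Figure D4:**
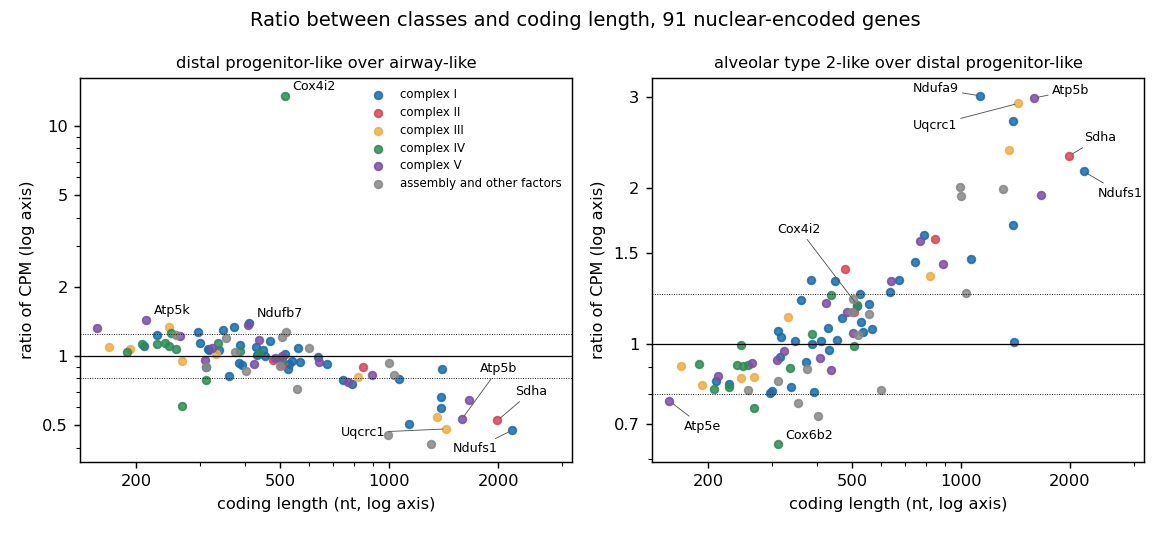
CPM ratio (log axis) against coding length in nucleotides (log axis) for the 91 nuclear members, coloured by complex, for distal progenitor-like over airway-like cells (left) and alveolar type 2-like over distal progenitor-like cells (right). Dotted lines mark a ratio of 0.8 and its inverse. Long members such as Atp5b, Uqcrc1 and Sdha lie low on the left and high on the right, and Cox4i2, at 13.5, stands far above all other members on the left.

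The long members' share of all nuclear member UMIs was 3.87% in distal progenitor-like, 6.62% in airway-like, 7.32% in Smoc2/Ager-led and 8.22% in alveolar type 2-like cells. Between 7000 and 30000 UMIs per cell it ran from 3.77% to 3.97% over the 4 depth bins of distal progenitor-like cells, from 6.46% to 6.80% over those of airway-like cells, from 7.97% to 8.47% over those of alveolar type 2-like cells and from 7.15% to 8.53% over those of Smoc2/Ager-led cells. The Smoc2/Ager-led share was above the alveolar type 2-like share in the 2 bins up to 14000 UMIs (8.49% against 7.97%, and 8.53% against 8.13%) and below it in the 2 deeper bins. The 3 distal clusters had 3.58%, 4.63% and 3.52%. In cells with no UMI of the proliferation genes Mki67 and Top2a, the summed long members had a distal over airway ratio of 0.605 and an alveolar type 2-like over distal ratio of 2.22. Other properties moved with the same classes. Cytosolic ribosomal protein genes made up 34.2% of UMIs in distal progenitor-like, 31.3% in airway-like, 29.1% in Smoc2/Ager-led and 27.8% in alveolar type 2-like cells, and the nuclear RNA Malat1 was at 4755, 9590, 4444 and 2859 CPM. At 10000 to 14000 UMIs the median number of detected genes was 2741 in distal progenitor-like and 2972 to 3072 in the other classes, and the pan-epithelial markers summed to 1189 CPM against 1874 to 2023 CPM. Their part in the result was not tested.

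The contrast rests on how distal cells were divided. When cells were gated by markers in place of clusters (Sox9 without Sox2 for distal, Sox2 without Sox9 for airway, at least 2 alveolar type 2 markers for that class, on cells thinned to 5000 UMIs), the long members' ratio was 0.945 for distal over airway and 1.13 for alveolar type 2 over distal, and the mitochondrial ratio of the latter pair was 0.978. Of the 866 cells of the Sox9 gate, 429 lay in distal progenitor-like clusters, 204 in the alveolar type 2-like cluster, 188 in the Smoc2/Ager-led cluster and 44 in the airway-like cluster. Inside this gate the mitochondrial members were at 30404, 21910, 24034 and 31679 CPM in those clusters, and the long members' share was 3.70%, 8.13%, 7.16% and 5.94%. Cells that passed the alveolar type 2 gate but lay in distal progenitor-like clusters had 31713 CPM and 4.06%, close to their cluster and not to the alveolar type 2-like cluster. Among cells of one marker gate, values thus moved with cluster membership. In clusterings that did not separate the alveolar classes (with members and cell-cycle genes among the variable genes, or only cells of at least 2000 genes), the long members' distal over airway ratio was 1.02 and 1.01. With finer clusters (resolution 0.8), which kept an alveolar type 2-like class, it was 0.899. The alveolar type 2-like over distal ratio was then 1.40.

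Cox4i2 had the widest span of all members (chromosome 2, 152754173 to 152765037, plus strand). It gave 13 UMIs in airway-like (1.48 CPM, 0.790 to 2.54), 103 in Smoc2/Ager-led (5.73 CPM, 4.68 to 6.95), 295 in distal progenitor-like (20.1 CPM) and 283 in alveolar type 2-like cells (23.9 CPM, 21.2 to 26.8). The distal over airway ratio was 13.5 (7.79 to 25.7), the Smoc2/Ager-led over distal ratio 0.285 (0.226 to 0.358) and the alveolar type 2-like over distal ratio 1.19 (1.01 to 1.40). Airway-like cells were thus lowest, Smoc2/Ager-led cells next, and the 2 highest classes lay close together. The 3 distal clusters were at 22.1, 16.1 and 20.4 CPM. Mesenchymal-like cells had 11 UMIs (30.1 CPM, 15.0 to 53.9), 8 of them in 1 cell.

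After thinning to 5000 UMIs per cell, a Cox4i2 UMI was seen in 85 of 1203 distal progenitor-like cells (7.07%, exact binomial interval 5.68% to 8.66%), 57 of 652 alveolar type 2-like cells (8.74%), 19 of 779 Smoc2/Ager-led cells (2.44%) and 1 of 693 airway-like cells (0.144%, 0.00365% to 0.801%). Without thinning the shares were 15.8%, 25.9%, 10.2% and 1.35%, at median depths of 10731, 15989.5, 19222.5 and 9289 UMIs. In cells of at most 14000 UMIs airway-like cells held 1 Cox4i2 UMI, and the distal over airway ratio was 85.5 with an interval of 15.1 to 3395. In cells with no Mki67 or Top2a UMI they held 0, and distal progenitor-like cells, at 14.8 CPM, were at least 21.5-fold higher when airway-like cells are set at a floor of 3 counts, while the exact lower limit of the ratio, which also holds the counting error of the 52 distal UMIs, was 16.9. Most airway-like Cox4i2 UMIs thus came from cells above 14000 UMIs, where 12.6% to 40% of airway-like cells carried both Xist and Y-linked UMIs. Without such cells the distal over airway ratio was 17.3. In the Sox9 gate Cox4i2 was at 21.1 CPM in distal progenitor-like, 21.3 in alveolar type 2-like and 5.90 in Smoc2/Ager-led cells. With alveolar type 1 and distal cells set by marker gates, the ratio of the former over the latter was 0.820 in place of 0.285.

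**Figure D5:**
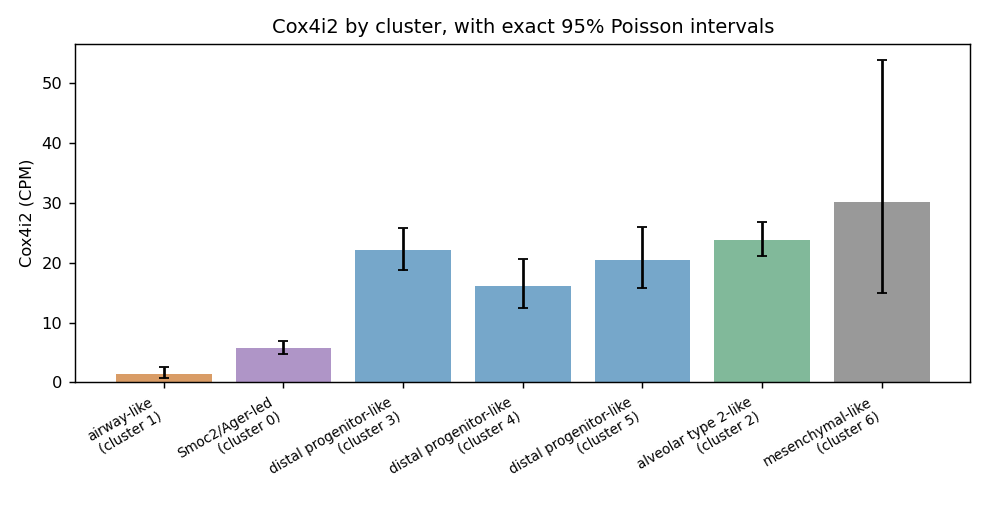
Cox4i2 in CPM by cluster, with exact 95% Poisson intervals as error bars and bars coloured by class. The airway-like cluster is at 1.48 CPM and the Smoc2/Ager-led cluster at 5.73 CPM, and the 3 distal clusters and the alveolar type 2-like cluster lie between 16.1 and 23.9 CPM. The mesenchymal-like bar rests on 11 UMIs.

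The ubiquitous isoform Cox4i1 (chromosome 8, 120668222 to 120674207) was level, at 1322 CPM in airway-like, 1266 in distal progenitor-like, 1256 in alveolar type 2-like and 1278 in Smoc2/Ager-led cells, and was seen in 99.2% to 100% of epithelial cells at 5000 UMIs. Over the 7 clusters, the genes whose log2(CPM + 1) was most like that of Cox4i2 by Pearson correlation were Cpne8 (0.993), Selenom (0.991), Rgcc (0.991), Thbd (0.986) and 2610318N02Rik (0.972). Thbd, the thrombin receptor thrombomodulin, was at 0.913 CPM in airway-like and 18.8 CPM in distal progenitor-like cells. A likeness over 7 clusters of 1 library is a description.

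Other tissue isoforms differed less. Cox6b2, known from testis, was at 35.4 CPM in airway-like, 27.7 in distal progenitor-like, 17.7 in alveolar type 2-like and 27.5 in Smoc2/Ager-led cells. Cox7a1, known from heart and skeletal muscle, was at 7.42, 4.49, 3.37 and 4.28 CPM, while its widely expressed partner Cox7a2 was at 663, 835, 757 and 763 CPM. Cox7a2l, which helps to join complexes III and IV into supercomplexes, was lowest in alveolar type 2-like cells, at 599, 515, 373 and 478 CPM. The 3 genes for the ATP synthase ring did not move together, with distal over airway ratios of 1.36 for Atp5g1, 1.17 for Atp5g2 and 0.923 for Atp5g3. Ndufa4 was at 977 to 1121 CPM in the 4 classes, and its hypoxia-linked relative Ndufa4l2 had 8 UMIs in all epithelial cells and 8 in 1 mesenchymal-like cell. At 5000 UMIs it was seen in 0 of 1203 distal progenitor-like cells, so that 3 counts would put the share of cells with a UMI at 0.249%, and the exact binomial upper limit was 0.306%.

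Genes of the citric acid cycle, which feeds the chain, were mostly lower in distal progenitor-like cells than in the other classes. Of 17 citric acid cycle and pyruvate dehydrogenase genes, 0 were higher and 13 lower in distal progenitor-like than in airway-like cells (median ratio 0.683), and 14 were higher and 1 lower in alveolar type 2-like than in distal progenitor-like cells (median 1.82). Over all genes 14.9% were higher and 41.2% lower in the first comparison (median 0.867), and 27.2% and 22.9% in the second (median 0.994). Mdh2, mitochondrial malate dehydrogenase, was at 242 CPM in airway-like, 146 in distal progenitor-like, 321 in alveolar type 2-like and 288 in Smoc2/Ager-led cells, and Fh1, fumarase, at 55.4, 26.8, 71.0 and 63.5 CPM. Citrate synthase (Cs), at 66.8, 65.1, 80.0 and 80.3 CPM, and Ogdh, at 22.1, 23.8, 18.6 and 23.4 CPM, did not show it. Pdha1 and Dlst were not lower than in airway-like cells either, with distal over airway ratios of 1.10 and 0.942. This list and the gene lists below were counted for the main classes only. With marker gates the long members' distal over airway ratio moved from 0.606 to 0.945, and whether these lists move likewise was not tested.

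Lists of other respiratory genes are read against the same shares over all genes. These were 14.9% higher and 41.2% lower for distal progenitor-like over airway-like cells (first comparison). For alveolar type 2-like over distal progenitor-like cells (second) they were 27.2% and 22.9%. Of 12 electron carrier genes, 1 was higher and 6 lower in distal progenitor-like than in airway-like cells, and 9 were higher and 0 lower in alveolar type 2-like cells than in distal progenitor-like cells. The higher gene was Cycs, cytochrome c, at 290 CPM in airway-like and 428 CPM in distal progenitor-like cells (ratio 1.48). Etfa, which hands on electrons from fatty acid oxidation, was at 114 and 70.0 CPM. Assembly factors outside the member rule gave 3 higher and 11 lower of 35 in the first comparison and 16 higher and 4 lower in the second, so that fewer were lower in the first than the 41.2% of all genes.

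Genes that express the mitochondrial genome were set beside its transcripts. Of 27 genes for mitochondrial transcription and translation, 1 was higher and 13 lower in distal progenitor-like than in airway-like cells, and 16 were higher and 1 lower in alveolar type 2-like than in distal progenitor-like cells, in which the mitochondrial transcripts stood higher. The 13 lower genes are close to the 41.2% of all genes in that comparison. Tfam, which packages mitochondrial DNA, was at 54.7 CPM in airway-like, 43.9 in distal progenitor-like, 65.0 in alveolar type 2-like and 56.4 in Smoc2/Ager-led cells. Of 77 mitochondrial ribosome genes, 8 were higher and 14 lower in the first comparison and 30 higher and 0 lower in the second, where the shares over all genes were 14.9% and 41.2%, and 27.2% and 22.9%. Fewer of them were lower than among all genes in both comparisons. Genes of like UMI counts were not set beside them. Of 6 regulators, Gabpb1 was higher in distal progenitor-like cells (36.8 against 26.7 CPM in airway-like), and Ppargc1a (6.40 against 9.13 CPM) and Esrra (2.72 against 6.16 CPM) were lower. With 1 higher and 2 lower of 6, the regulators were near the 14.9% and 41.2% of all genes. Nrf1 was at 21.1, 24.1, 31.7 and 29.3 CPM in airway-like, distal progenitor-like, alveolar type 2-like and Smoc2/Ager-led cells, and was higher in alveolar type 2-like than in distal progenitor-like cells.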

How the data were processed

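Sorted epithelial cells were captured with 10x Chromium 3′ chemistry version 2, per the labels' protocols. The deposited matrix of the control library gives, for each barcode and gene, a whole-number UMI count that is not normalized. The file header names software version 3.0.1. The submitters' processing notes name Cell Ranger, Seurat and build mm10. The rule for calling cells, and how reads shared with processed pseudogenes or nuclear copies of mitochondrial DNA were counted, are not given in the sources used here. The 2 knockout files were used only to compare barcodes and gene lists.

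Of 3568 barcodes with 53789893 UMIs in all, 111 were removed (89 under 1000 genes, 90 above 10% mitochondrial UMIs, some for both reasons). For clustering, each cell was brought to a total of 10000 and the natural log of 1 plus the value was taken. The 2000 genes of highest normalized dispersion outside the members and cell-cycle genes, seen in at least 10 cells, gave 20 principal components and 20 neighbours, clustered with scanpy 1.11.5 and leidenalg 0.10.2 at resolution 0.5 and seed 0. A class name needed at least 3 markers, each with at least 10 UMIs, at 2 times the CPM of other cells, with no other class leading among the 10 top genes. A cluster left without a name was called distal if it had 3 distal markers at 1.5 times the airway level and no other class had more markers than the distal class among its 10 top genes. That rule was set after clusters had been seen. No doublet caller was run, and cells with at least 4 Xist UMIs and a Y-linked UMI (249 cells, 7.20%) were left out as an alternative.

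CPM of class sums carry exact Poisson intervals, ratios exact conditional intervals and shares exact Clopper-Pearson intervals, all at 95% and for counting error only. A count of 0 is limited by 3 counts. The ratio script was tested on simulated data. Positions and coding lengths come from GENCODE M21 (GRCm38), in which 104 of 104 members matched by identifier and symbol, and promoters from RefSeq (GRCm38.p6). Python 3.11.15, numpy 2.4.6, scipy 1.17.1, pandas 2.3.3 and matplotlib 3.10.9 were used.

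Members, gene lists, alternatives and the rule for named genes (all mitochondrial genes, isoform sets, extremes of each complex, and up to 20 nuclear members by size of fold) were chosen with earlier results of these data known. The grouping by coding length and the cross of gates with clusters were added after seeing the data.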

Additional observations from a re-analysis of the deposited data

How the results depend on the processing

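No paired analysis was possible because each genotype has 1 library. Ratios are given as distal progenitor-like over airway-like (D/A), alveolar type 2-like over distal (2/D) and Smoc2/Ager-led over distal (1/D). With marker gates, 1/D stands for cells with at least 2 alveolar type 1 markers over Sox9 cells, and only 37.3% of the former lay in the Smoc2/Ager-led cluster. The nuclear sum's D/A ratio stayed above 1 in 16 of 16 alternatives: 1.05 with members and cell-cycle genes in the clustering, 1.04 with at least 2000 genes per cell, 1.02 in cells of at most 14000 UMIs, 1.05 above 14000 UMIs, 1.03 with each cell counted equally, 1.04 with marker gates and 1.04 without the distal cluster led by Xist. Its 2/D ratio stayed above 1 in 14 of 14: 1.01 at resolution 0.8, 1.03 with a mitochondrial limit of 20%, 1.05 in cells of at most 14000 UMIs, 1.03 over UMIs outside mitochondrial genes, 1.02 with marker gates and 1.03 without the Xist-led cluster. Its 1/D ratio of 1.005 has no firm direction: it was 1.001 at a limit of 5%, 0.999 at 20%, 1.03 up to 14000 UMIs, 1.01 without Mki67 or Top2a UMIs, 0.999 over UMIs outside mitochondrial genes, 0.996 with marker gates and 0.998 without the Xist-led cluster.

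The mitochondrial sum's D/A ratio stayed below 1 in 16 of 16: 0.812 at resolution 0.8, 0.778 with members in the clustering, 0.944 and 0.904 at limits of 5% and 20%, 0.831 with at least 2000 genes, 0.895 up to and 0.931 above 14000 UMIs, 0.909 without Mki67 or Top2a UMIs, 0.890 with cells counted equally, 0.796 with marker gates, 0.928 without cells under 0.5% mitochondrial UMIs and 0.913 without the Xist-led cluster. Its 2/D ratio was, in the order of those that apply, 0.836 at resolution 0.8, 0.733 and 0.712 at 5% and 20%, 0.738 up to and 0.733 above 14000 UMIs, 0.723 without Mki67 or Top2a, 0.700 over UMIs outside mitochondrial genes, 0.691 with cells counted equally, 0.978 with marker gates, 0.699 without low-mitochondrial cells and 0.712 without the Xist-led cluster. Its 1/D ratio was 0.815 with seed 1, 0.830 and 0.821 at 5% and 20%, 0.803 up to and 0.853 above 14000 UMIs, 0.805 without cells carrying Xist and Y-linked UMIs, 0.817 without Mki67 or Top2a, 0.806 over UMIs outside mitochondrial genes, 0.802 with cells counted equally, 0.998 with marker gates, 0.80 without low-mitochondrial cells and 0.817 without the Xist-led cluster.

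Cox4i2 D/A ran from 7.07 with at least 2000 genes to 85.5 up to 14000 UMIs and stayed above 1 in 15 of 15. The 29 nuclear members called D/A became 14 at resolution 0.8, 11 with members in the clustering, 7 with at least 2000 genes, 12 with marker gates and 13 at a limit of 1.5-fold, and lay between 27 and 31 otherwise. The share of all genes past the limit was taken for the main classes only. Whether these drops are particular to the members cannot be told. At resolution 0.8, where an alveolar type 2-like class of 498 cells was still separate, the long members' D/A ratio moved from 0.606 to 0.899. Their 2/D ratio moved there from 2.21 to 1.40. The D/A ratio turned to 1.02 with members in the clustering and 1.01 with at least 2000 genes, settings in which the alveolar classes were not separated and the distal class held 2642 and 2446 cells. For that reason 2/D and 1/D have no value under these settings, nor 1/D at resolution 0.8. The choices added after seeing the data were the cells above 14000 UMIs, those under 0.5% mitochondrial UMIs, the Xist-led cluster and cells with a blood marker UMI. The cause of these shifts was not tested. Small counts limit Cox4i2, mt-Nd6, mt-Atp8 and Cox7a1, and 1 library allows no statement about variation between embryos.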

Other observations

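A set of 10 genes of the response to low oxygen were set beside Cox4i2, and 9 had at least 50 UMIs. None was higher in distal progenitor-like than in airway-like cells and 6 were lower, where 14.9% of all genes were higher and 41.2% lower. Cox4i2 was 13.5-fold higher in that comparison, and a link between the list and the Cox4i2 level was not tested. Bnip3, a mitophagy receptor, was at 92.1 CPM in airway-like and 37.4 CPM in distal progenitor-like cells, and Pdk1, which restrains pyruvate dehydrogenase, at 34.4 and 18.5 CPM. Slc2a1, the glucose transporter GLUT1, was at 25.5 CPM in airway-like, 12.3 in distal progenitor-like, 25.6 in alveolar type 2-like and 17.9 in Smoc2/Ager-led cells. Higd1a was level at 276 to 312 CPM. A list of 14 immediate early and stress genes summed to 2891 CPM in airway-like, 1585 in distal progenitor-like, 2054 in alveolar type 2-like and 2264 in Smoc2/Ager-led cells, and its part in these values was not tested.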
